A study of Mus musculus with 9 samples.

Results

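The 10 chemokine genes Ccl2, Ccl5, Ccl7, Ccl20, Cxcl1, Cxcl5, Cxcl10, Cxcl12, Cxcl16 and Cx3cl1 were taken by name from a gene table of 56289 Ensembl mouse identifiers, and all 10 were found. Messenger RNA was sequenced from 9 libraries, 3 per group, and the values are FPKM (fragments per kilobase of gene model, scaled to the fragments of the library), so levels of different genes can be set side by side per length. The groups were TNF plus WBG (tumour necrosis factor alpha, TNF-α, given with WBG for 24 h), TNF (TNF-α alone for 24 h) and untreated. WBG is Wang Bi granules, a Chinese herbal preparation used for rheumatoid arthritis, and TNF-α is the inflammatory cytokine used for induction. All groups are labelled as RAW264.7, a single murine macrophage-like line of BALB/c origin. No WBG group without TNF-α is among the samples, and the labels give no time for the untreated libraries, so time in culture and TNF-α cannot be told apart.

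Chemokines are small secreted or membrane-anchored proteins that guide leukocytes through G protein-coupled receptors. Many of their genes are switched on downstream of the TNF receptor by the transcription factor NF-kB, which binds kappaB motifs in promoters. Ccl2 and Ccl7 attract monocytes through CCR2, Ccl5 attracts T cells and monocytes, and Ccl20 attracts CCR6-bearing lymphocytes. Cxcl1 and Cxcl5 attract neutrophils through CXCR2, and Cxcl10 is an interferon-induced ligand of CXCR3. Cxcl12 is a largely constitutive stromal ligand of CXCR4, while Cxcl16 and Cx3cl1 (fractalkine) are anchored in the membrane and bind CXCR6 and CX3CR1. In the inflamed joint, stromal cells and macrophages are both known sources of such ligands.

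The transcripts in the table went against the labelled cell type. Of 12 macrophage markers, Ptprc, Itgam, Adgre1 and Tyrobp were listed at 0 in all 9 libraries, and 2, Cd14 and Cd68, reached a mean of 1 FPKM. Of 12 fibroblast markers 10 did, with Col1a1 between 791 and 1021 FPKM. The exceptions were Lum, listed at 0 in all 9 libraries, and Thy1, at most 0.07 FPKM. The summed macrophage list lay between 7.78 and 10.2 FPKM with TNF plus WBG, 6.86 and 7.86 FPKM with TNF, and 5.87 and 7.23 FPKM untreated. Over the 9 libraries Cd14 averaged 5.63 FPKM and Cd68 1.30 FPKM, so these sums are largely those of Cd14. The summed fibroblast list lay between 3316 and 3575 FPKM with TNF plus WBG, 3420 and 3508 FPKM with TNF, and 3277 and 3591 FPKM untreated. The part of such cells in the chemokine differences was not tested, and the values are given as those of the libraries, not of macrophages. In bulk RNA, fewer cells of a type and less RNA per cell cannot be told apart. The table holds no counts. If the step fitted to the values of single-exon genes is 1 fragment, the libraries hold 37.9 to 52.3 M (mega) fragments. If 2 such steps make 1 fragment, they hold 19.0 to 26.1 M. The depth is thus uncertain, and no counting interval is given.

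Promoter windows were searched for kappaB motifs, and those of genes that rose with TNF are shown first. Whether NF-kB had a part in these rises was not tested. RefSeq windows (build GRCm38.p6, from 250 bases before to 50 bases after the start of the gene) were at hand for 5 of the 10 members, Ccl20, Cxcl1, Cxcl10, Cxcl12 and Cx3cl1. For Ccl2, Ccl5 and Ccl7, which also rose, no window was at hand. The 3 of these that rose with TNF follow, 5′ to 3′ on the strand of the gene, with matches to the motif GGGNNNTTCC on either strand in capitals. The Cxcl1 window is chr5:90890995-90891294 (plus strand), the Cxcl10 window chr5:92348840-92349139 (minus strand) and the Ccl20 window chr1:83116516-83116815 (plus strand).
Cxcl1: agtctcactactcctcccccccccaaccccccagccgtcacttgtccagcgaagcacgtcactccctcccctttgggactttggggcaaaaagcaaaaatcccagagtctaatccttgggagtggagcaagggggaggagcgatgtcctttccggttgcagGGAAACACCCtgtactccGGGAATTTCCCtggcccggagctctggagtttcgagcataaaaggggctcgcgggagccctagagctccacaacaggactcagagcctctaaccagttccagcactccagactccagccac
Cxcl10: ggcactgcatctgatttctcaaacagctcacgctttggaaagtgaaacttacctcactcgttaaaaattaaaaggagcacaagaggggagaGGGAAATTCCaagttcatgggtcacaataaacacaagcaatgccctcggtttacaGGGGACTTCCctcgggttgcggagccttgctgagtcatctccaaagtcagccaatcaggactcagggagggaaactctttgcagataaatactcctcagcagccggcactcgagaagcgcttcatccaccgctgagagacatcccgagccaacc
Ccl20: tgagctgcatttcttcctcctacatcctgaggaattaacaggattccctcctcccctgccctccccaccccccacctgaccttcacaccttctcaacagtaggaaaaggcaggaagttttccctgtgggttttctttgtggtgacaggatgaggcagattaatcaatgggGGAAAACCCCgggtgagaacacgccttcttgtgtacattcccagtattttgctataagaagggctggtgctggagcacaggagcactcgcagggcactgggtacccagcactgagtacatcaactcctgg

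The Cxcl1 window held 3 matches, with first bases at -89, -71 and -70 counted from the start, of which those at -71 and -70 overlap on opposite strands. The Cxcl10 window held 2 matches, at -159 and -104, and the Ccl20 window held 1 match, at -80. The windows of Cxcl12 and Cx3cl1 held no match to this motif. Of 32851 RefSeq windows in all, 5.56% held at least 1 match. Other spacings and ends were searched as well, on both strands and with overlaps to the first motif. GGGNNTTCC was found in Ccl20 and Cxcl10 (5.82% of all windows), GGGNNCCC in Ccl20 and Cxcl1 (12.0%) and GGGNNNNCCC in Ccl20 and Cxcl10 (11.9%), while GGGNNNNTTCC (5.05%) and GGGNNNCCC (11.4%) were found in none of the 5. No form was named as the main one beforehand. The form shown in capitals is the only one that matched each of Ccl20, Cxcl1 and Cxcl10. Its split between genes that rose and genes that did not is therefore not read as a result. A match describes the letters and shows no binding.

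In the 3 groups together the 10 genes spanned from 0 to 269 FPKM. Genes were tested where at least 3 of the 9 libraries reached 1 FPKM, which kept 13026 genes and 8 of the 10 members. Cxcl5 and Cxcl16 did not reach it. Ccl5 and Cxcl10 passed only through the treated libraries and Ccl20 only through those with TNF plus WBG, so these 3 had to differ between groups to be tested at all. Log2 fold changes are those of FPKM plus 1, fitted with limma over all 9 libraries and given with the standard error of the fit. A gene is said to have risen or fallen where its Benjamini-Hochberg adjusted p over all 13026 genes was under 0.05. Ratios of means are given where both means were at least 1 FPKM.

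**Figure D1:**
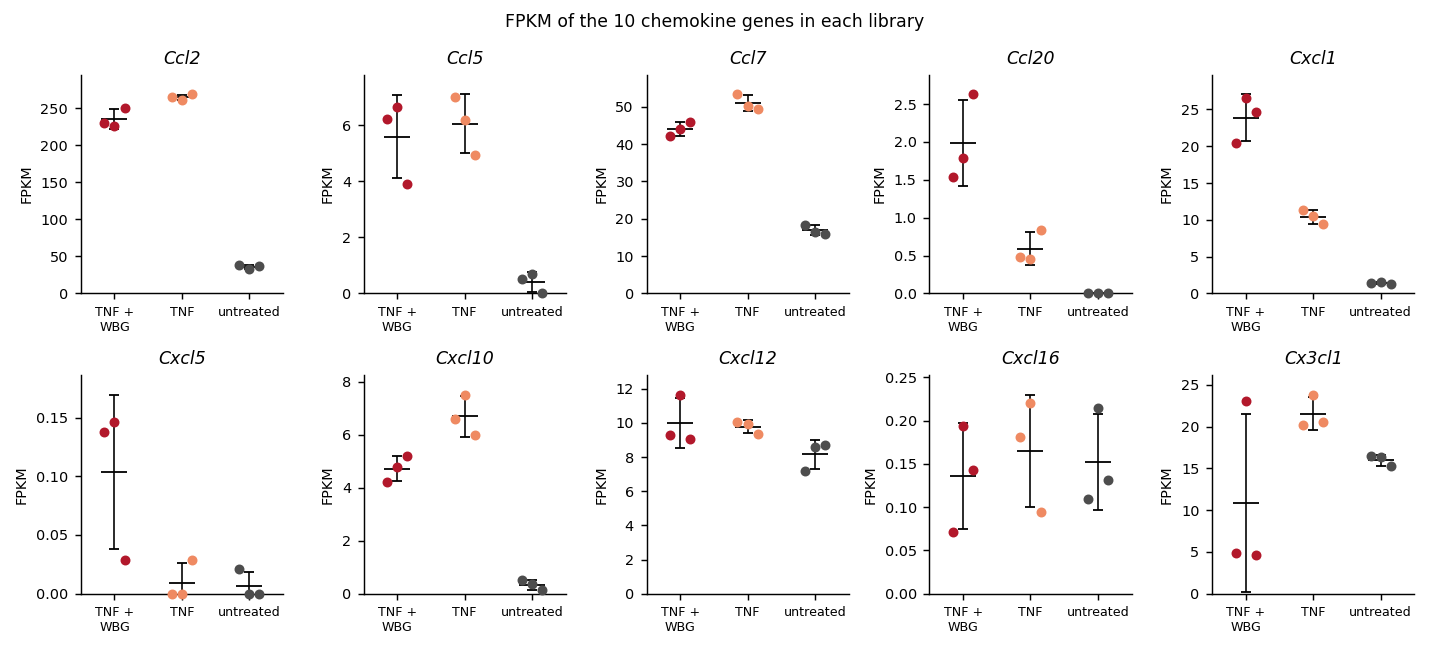
FPKM (vertical axes, each from 0) of the 10 chemokine genes in the 3 libraries of each group (points), with the mean (long tick) and SD (error bar, cut at 0). The treated libraries lie above the untreated ones for Ccl2, Ccl5, Ccl7, Ccl20, Cxcl1 and Cxcl10, Cxcl1 and Ccl20 are highest with TNF plus WBG, and Cx3cl1 splits within the TNF plus WBG group.

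Adding the granules to TNF-α was compared with TNF-α alone. Cxcl1 rose with TNF plus WBG, and it alone of the 8 tested members passed. No member fell. Of all 13026 genes 0.0998% passed in either direction, 0.0691% higher and 0.0307% lower. Without TNF plus WBG replicate 2, Cx3cl1 fell as well, so that 1 member was lower. Without considering the threshold, the libraries of the groups did not overlap for Cxcl1 and Ccl20 (higher with TNF plus WBG, against 7.03% of all genes) and for Ccl2, Ccl7 and Cxcl10 (lower, against 7.72% of all genes). Ccl20 passed the filter only through the TNF plus WBG libraries. Its lack of overlap was thereby fixed in advance and is not read against the 7.03%. The median log2 fold change of the 8 members was -0.14, beside 0.00 for all genes tested (-0.0026). With Ccl20 among the 8, this median describes the tested members and is not read further.

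Cxcl1 had 20.4, 26.6 and 24.7 FPKM with TNF plus WBG, 11.3, 10.5 and 9.37 FPKM with TNF, and 1.37, 1.52 and 1.22 FPKM untreated. The groups did not overlap, and every library with TNF plus WBG lay above every TNF library. The log2 fold change between TNF plus WBG and TNF was 1.12 ± 0.11 (limma adjusted p = 0.00514, 12th of 13026 genes from the top), a ratio of means of 2.29. It kept its call in all 9 fits that left out a library, with an adjusted p of 0.00526 to 0.0371.

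Ccl20, the CCR6 ligand, had 1.54, 1.79 and 2.63 FPKM with TNF plus WBG, 0.48, 0.45 and 0.84 FPKM with TNF, and was listed at 0 in all untreated libraries. No groups overlapped, which the filter fixed for TNF plus WBG against the others. The order of the groups was that of Cxcl1, at a far lower level. Its log2 fold change with WBG was 0.90 ± 0.15 (95% interval 0.56 to 1.24), and it did not pass (limma adjusted p = 0.154).

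Cxcl5, the other CXCR2 ligand among the 10 genes, had 0.14, 0.15 and 0.03 FPKM with TNF plus WBG, at most 0.03 FPKM with TNF and at most 0.02 FPKM untreated. All these values lie under the level at which a gene was tested, and the lowest library with TNF plus WBG and the highest TNF library both stood at 0.0284 FPKM. Of the other CXCR2 ligands, named after their values were seen, Cxcl2, which lies next to Cxcl1, reached at most 0.21 FPKM, and Cxcl3 and Ppbp were listed at 0 in all libraries.

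The monocyte-attracting pair stood lower with the granules without passing. Ccl2 had 229.7, 226 and 251 FPKM with TNF plus WBG, 265, 262 and 269 FPKM with TNF, and 38.1, 32.7 and 37.1 FPKM untreated. Ccl7 had 42.2, 43.9 and 45.9 FPKM with TNF plus WBG, 53.3, 50.2 and 49.3 FPKM with TNF, and 18.4, 16.4 and 15.8 FPKM untreated. For both genes each library with TNF plus WBG lay between the TNF and the untreated libraries. The log2 fold changes between TNF plus WBG and TNF were -0.17 ± 0.06 for Ccl2 (95% interval -0.31 to -0.03, limma adjusted p = 0.491) and -0.21 ± 0.06 for Ccl7 (-0.34 to -0.07, adjusted p = 0.43).

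Cxcl10, the CXCR3 ligand, had 4.22, 4.77 and 5.19 FPKM with TNF plus WBG, 6.60, 7.52 and 5.99 FPKM with TNF, and 0.51, 0.37 and 0.13 FPKM untreated. It stood lower with WBG than with TNF alone in every library, by a log2 fold change of -0.43 ± 0.12 (95% interval -0.71 to -0.14, limma adjusted p = 0.423). In the annotation used here an exon of Cxcl10 overlaps Art3, and the table does not say how overlapping reads were assigned.

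Ccl5 had 6.23, 6.64 and 3.91 FPKM with TNF plus WBG, 7.01, 6.19 and 4.92 FPKM with TNF, and 0.50, 0.70 and 0 FPKM untreated. The libraries with and without WBG overlapped (log2 fold change -0.11 ± 0.23, 95% interval -0.64 to 0.42, limma adjusted p = 0.931). Cxcl12, the CXCR4 ligand, had 9.28, 11.7 and 9.06 FPKM with TNF plus WBG, 10.1, 9.94 and 9.38 FPKM with TNF, and 7.20, 8.61 and 8.70 FPKM untreated. It overlapped between TNF plus WBG and TNF as well, and the 95% interval of its log2 fold change ran from -0.21 to 0.25 (adjusted p = 0.974).

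Set against Ccl2 within the same library, Cxcl1 transcript stood at a ratio of 0.0889, 0.118 and 0.0983 with TNF plus WBG, 0.0428, 0.0402 and 0.0349 with TNF, and 0.0361, 0.0464 and 0.0329 untreated. This ratio does not depend on how libraries were scaled. It was chosen after the values were seen. The TNF and untreated libraries overlapped and those with TNF plus WBG lay above both.

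Cx3cl1, fractalkine, was split within the group given TNF plus WBG. It had 4.86, 23.1 and 4.60 FPKM with TNF plus WBG, 20.2, 23.8 and 20.6 FPKM with TNF, and 16.4, 16.3 and 15.2 FPKM untreated. Replicates 1 and 3 with TNF plus WBG lay below every library of the other groups, while replicate 2 lay among the TNF libraries. The highest library of that group was 5.02 times the lowest. On the log2 scale of FPKM plus 1 the range was 2.10, where the median gene ranged over 0.17, and 25 of the 13026 genes ranged further in that group. Ranges that wide were not particular to it, since 30 genes in the TNF group and 32 in the untreated group ranged further than this.

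The mean of Cx3cl1 with TNF plus WBG, 10.8 ± 10.6 FPKM (SD, n = 3), describes none of its libraries. The fitted log2 fold change against TNF was -1.28 ± 0.47 (95% interval -2.35 to -0.21, limma adjusted p = 0.503). Without TNF plus WBG replicate 2 it was -1.97 (adjusted p = 0.000119) against TNF and -1.57 (2.9e-05) against untreated, both past the threshold. With any other single library left out it did not pass in either comparison. In GENCODE M21 no other gene overlaps its exons.

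**Figure D2:**
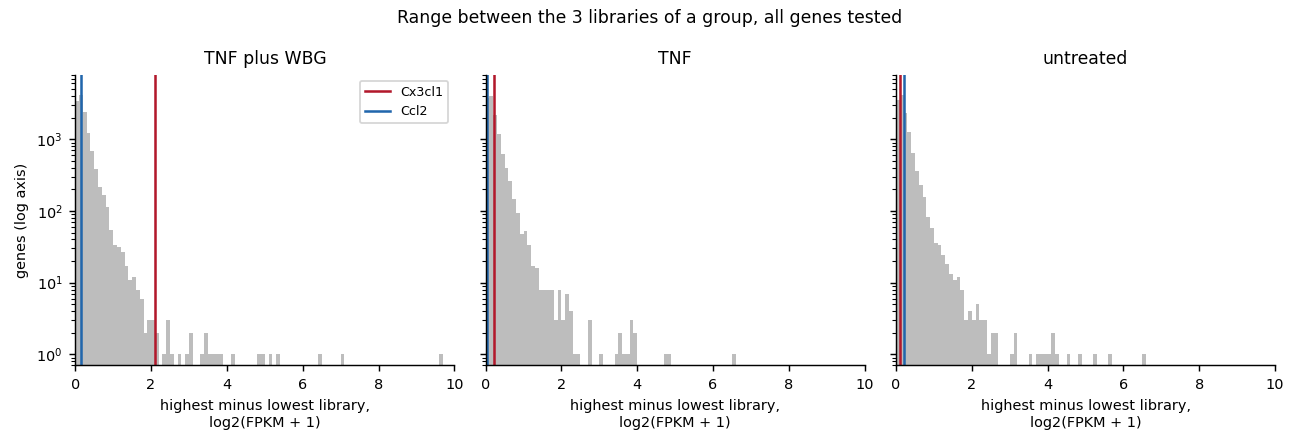
Number of genes (vertical axis, log scale) by the difference between the highest and the lowest of the 3 libraries of a group in log2(FPKM + 1), for the 13026 genes tested, with Cx3cl1 (red) and Ccl2 (blue) marked. Cx3cl1 lies at 2.10 in the TNF plus WBG group, against 0.23 with TNF and 0.10 untreated.

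TNF was then compared with untreated, a difference that holds TNF-α and any difference in time in culture. Of the 8 tested members 6 rose and none fell, beside 10.6% of all genes tested that passed, 6.43% higher and 4.21% lower. The 6 were Ccl2, Ccl5, Ccl7, Ccl20, Cxcl1 and Cxcl10. All 8 lay above the untreated libraries without overlap, as did 15.5% of all genes tested, with 14.4% below. The median log2 fold change of the 8 was 1.90, against a median of 0.00 for all genes (3.41e-05). Since Ccl5, Cxcl10 and Ccl20 were tested only because they were high in treated libraries, the counts and the median describe the tested members. Neither is read further.

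Ccl2 rose by a log2 fold change of 2.85 ± 0.06 (limma adjusted p = 5.42e-08), 6th from the top of the 13026 genes. Cxcl10 rose by 2.53 ± 0.12 (adjusted p = 3.83e-06), Ccl5 by 2.35 ± 0.23 (0.000257) and Cxcl1 by 2.26 ± 0.11 (2.67e-06), a ratio of means of 7.59. These 4 genes were among the first 11 of all genes by log2 fold change of FPKM plus 1. Their order among themselves depends on the pseudocount, because the untreated levels of Cxcl10, Ccl5 and Cxcl1 are low. With pseudocounts of 0.1 and 5 in place of 1 the log2 fold change was 4.07 and 1.13 for Cxcl10, 4.06 and 1.03 for Ccl5, 2.84 and 1.27 for Cxcl1, and 2.88 and 2.72 for Ccl2. Ccl7, whose gene lies next to Ccl2, rose by 1.54 ± 0.06 (1.08e-06), a ratio of means of 3.02. In the same libraries the ratio of Ccl2 to Ccl7 was 4.97 to 5.45 with TNF and 2.00 to 2.34 untreated.

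The rise of Ccl20 with TNF (log2 fold change 0.66 ± 0.15, limma adjusted p = 0.0239) stood near the threshold. The size of this fold change rests on the pseudocount, since the untreated libraries are listed at 0, and it was 2.74 with a pseudocount of 0.1 and 0.16 with a pseudocount of 5. Its call was lost without untreated replicates 1, 2 or 3 or TNF replicate 3 (adjusted p of 0.0637 to 0.0787), with a pseudocount of 5 (0.113) and with no filter (0.0588). Leaving out a library with TNF plus WBG took Ccl20 out of the test.

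Cxcl12 and Cx3cl1 were higher in each TNF library than in each untreated one and did not pass. For Cxcl12 the log2 fold change was 0.24 ± 0.10 (95% interval 0.01 to 0.47, limma adjusted p = 0.19). For Cx3cl1 it was 0.40 ± 0.47 (-0.67 to 1.48, adjusted p = 0.666), with a spread shared by all 3 groups. In a fit of only the TNF and untreated libraries, which leaves out the split group, the same change of 0.40 passed (adjusted p = 0.0188), and it passed without TNF plus WBG replicate 2 (0.0106). Cxcl16, the other membrane-anchored ligand, had 0.07, 0.19 and 0.14 FPKM with TNF plus WBG, 0.18, 0.22 and 0.09 FPKM with TNF, and 0.11, 0.21 and 0.13 FPKM untreated, and its groups overlapped. An exon of Cxcl16 overlaps Zmynd15 in the annotation used.

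**Figure D3:**
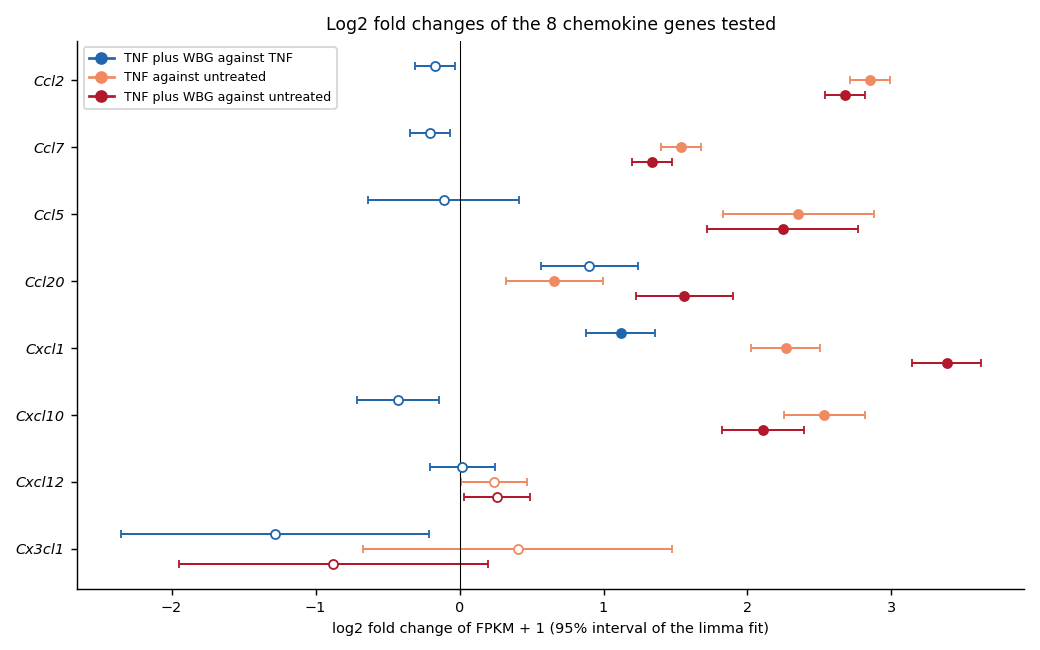
Log2 fold change of FPKM plus 1 (horizontal axis) with its 95% interval for the 8 chemokine genes tested, in the 3 comparisons; filled points passed at an adjusted p under 0.05 and open points did not. Between TNF plus WBG and TNF the filled point is Cxcl1 at 1.12, and against untreated the points of Ccl2, Ccl7, Ccl5, Ccl20, Cxcl1 and Cxcl10 are filled in both comparisons.

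TNF plus WBG against untreated gives the levels that remained with both agents. The same untreated libraries serve as control in the comparison of TNF with untreated, so the outcomes are given side by side and are not independent. Of the 8 tested members 6 rose and none fell, beside 9.19% of all genes that passed, 5.52% higher and 3.67% lower. The 6 were Ccl2, Ccl5, Ccl7, Ccl20, Cxcl1 and Cxcl10. Without overlap of libraries 7 members were higher, Cxcl12 among them and Cx3cl1 not, and none lower, beside 14.5% of all genes higher and 13.6% lower. Here too Ccl5, Cxcl10 and Ccl20 were tested only because they were high in treated libraries. Both counts therefore describe the tested members and are not read further. Cxcl1 rose by 3.39 ± 0.11 (limma adjusted p = 4.26e-07), 2nd of the 13026 genes, a ratio of means of 17.4 beside 7.59 for TNF. Ccl2 rose by 2.68 ± 0.06 (9.31e-08), a ratio of means of 6.55 beside 7.37 for TNF, and Ccl7 by 1.33 ± 0.06 (2.91e-06), 2.61 beside 3.02. The log2 fold change was 2.24 for Ccl5, 2.11 for Cxcl10 and 1.56 for Ccl20 (adjusted p = 0.000383, 1.41e-05 and 0.00025). With pseudocounts of 0.1 and 5 these were 3.93 and 0.96 for Ccl5, 3.58 and 0.87 for Cxcl10, 4.35 and 0.48 for Ccl20, and 4.02 and 2.17 for Cxcl1. Without TNF plus WBG replicate 2, 1 member, Cx3cl1, was lower.

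Ccl2 and Ccl7 had the highest mean levels per length in each of the 3 groups. With TNF plus WBG the order of means was Ccl2, Ccl7, Cxcl1, Cx3cl1, Cxcl12, Ccl5, Cxcl10, Ccl20, Cxcl16 and Cxcl5. With TNF it was Ccl2, Ccl7, Cx3cl1, Cxcl1, Cxcl12, Cxcl10, Ccl5, Ccl20, Cxcl16 and Cxcl5, and untreated it was Ccl2, Ccl7, Cx3cl1, Cxcl12, Cxcl1, Ccl5, Cxcl10, Cxcl16, Cxcl5 and Ccl20. Neighbours whose libraries overlapped were Cxcl1 with Cx3cl1, Cx3cl1 with Cxcl12, Ccl5 with Cxcl10 and Cxcl16 with Cxcl5 for TNF plus WBG. For TNF they were Cxcl1 with Cxcl12 and Cxcl10 with Ccl5, and untreated they were Ccl7 with Cx3cl1, Ccl5 with Cxcl10, Cxcl10 with Cxcl16 and Cxcl5 with Ccl20. The 10 genes together summed to 337 ± 15.8 FPKM with TNF plus WBG, 371 ± 2.44 FPKM with TNF and 79.3 ± 2.98 FPKM untreated (SD, n = 3). Ccl2 and Ccl7 made up 83.0 ± 4.12% of that sum with TNF plus WBG, 85.1 ± 0.979% with TNF and 66.6 ± 2.36% untreated.

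The receptors of these ligands were nearly absent. Of 18 chemokine receptor genes 1, Cxcr4, was tested, and the other 17 stayed below 1 FPKM in every library. Cxcr4, the receptor of Cxcl12, had 1.08, 1.18 and 1.35 FPKM with TNF plus WBG, 0.49, 0.49 and 0.89 FPKM with TNF, and 0.76, 0.77 and 1.19 FPKM untreated. Its libraries did not overlap between TNF plus WBG and TNF, and it did not pass (log2 fold change 0.45 ± 0.13, limma adjusted p = 0.432). No TNF library and 1 untreated library reached 1 FPKM, so Cxcr4 could pass the filter only with TNF plus WBG libraries. Its lack of overlap is therefore not read against the 7.03% of all genes that were higher without overlap. Ccr2 and Cxcr2 reached at most 0.02 FPKM, Cx3cr1 at most 0.03 FPKM, Cxcr3 at most 0.05 FPKM and Cxcr6 at most 0.33 FPKM. Of 5 atypical receptors, which bind chemokines without G protein signalling or, for Ccrl2, bind a chemoattractant, Ackr3 alone was tested. This scavenger of Cxcl12 averaged 1.91 FPKM with TNF plus WBG, 2.28 FPKM with TNF and 1.77 FPKM untreated and did not pass in any comparison.

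Of 31 other chemokine ligands 30 were in the table, 13 were listed at 0 throughout and 3 were tested. Ccl9, an inflammatory chemokine of mice, rose with TNF. It had 2.60, 3.03 and 2.91 FPKM with TNF plus WBG, 3.08, 3.48 and 3.09 FPKM with TNF, and 1.39, 1.31 and 1.42 FPKM untreated (log2 fold change 0.83 ± 0.08 for TNF against untreated, limma adjusted p = 0.000168, and 0.69 ± 0.08 for TNF plus WBG against untreated, 0.000564). Ccl25 and Ccl27a, named after their values were seen, did not pass in any comparison. Cxcl11, which shares CXCR3 with Cxcl10, was too low to be tested and was picked after its values were seen. It had 0.42, 0.86 and 0.66 FPKM with TNF plus WBG, 0.63, 0.50 and 0.63 FPKM with TNF, and at most 0.02 FPKM untreated. Ccl4 and Ccl3, chemokines typical of activated macrophages, were also picked after their values were seen. Ccl4 was listed at 0 in all 9 libraries, and Ccl3 in 8 of them, with 0.06 FPKM in the other.

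Among 12 proteases that cut or shed chemokines 5 were tested, and 2 rose and 2 fell with TNF against untreated, beside 6.43% of all genes higher and 4.21% lower. The rises were Adam17, a sheddase of Cx3cl1 (log2 fold change 0.45, limma adjusted p = 0.00136), and Mmp9, gelatinase B (2.12, 8.3e-07). The falls were Adam10, a sheddase of Cx3cl1 and Cxcl16 (-0.19, 0.0183), and Mmp2, gelatinase A, which can cleave Cxcl12 and Ccl7 (-0.17, 0.00249). For TNF plus WBG against untreated Adam17 (0.53, 0.000559) and Mmp9 (1.80, 2.48e-06) rose and Mmp2 fell (-0.20, 0.0013). Mmp9, at most 0.23 FPKM untreated, was tested only because it was high in treated libraries. The counts of proteases that rose are therefore not read further. Dpp4, which trims Cxcl10 and Cxcl12, was picked after its values were seen and was listed at 0 throughout.

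Of 12 proteoglycans that can hold chemokines at the cell surface or in the matrix 10 were tested, and 2 rose and 2 fell with TNF against untreated, beside the same 6.43% and 4.21% of all genes. Gpc1, glypican 1, had 126, 139.96 and 128 FPKM with TNF plus WBG, 115, 116 and 121 FPKM with TNF, and 205, 202 and 197 FPKM untreated, so that the groups did not overlap. Its log2 fold change was -0.78 ± 0.04 for TNF against untreated (limma adjusted p = 8.93e-06) and -0.61 ± 0.04 for TNF plus WBG against untreated (4.64e-05). Syndecan 1, Sdc1, fell with TNF (-0.35, 0.0295), while syndecan 4, Sdc4 (0.24, 0.0138), and perlecan, Hspg2 (0.22, 0.00983), rose. For TNF plus WBG against untreated Sdc4 (0.39, 0.00132) and Hspg2 (0.25, 0.0061) rose and Gpc4, glypican 4, fell (-0.15, 0.0228). Between TNF plus WBG and TNF none of the 3 other ligands, 1 receptor, 1 atypical receptor, 5 proteases and 10 proteoglycans tested passed, where 0.0998% of all genes did, so nothing is read from this count.

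**Figure D4:**
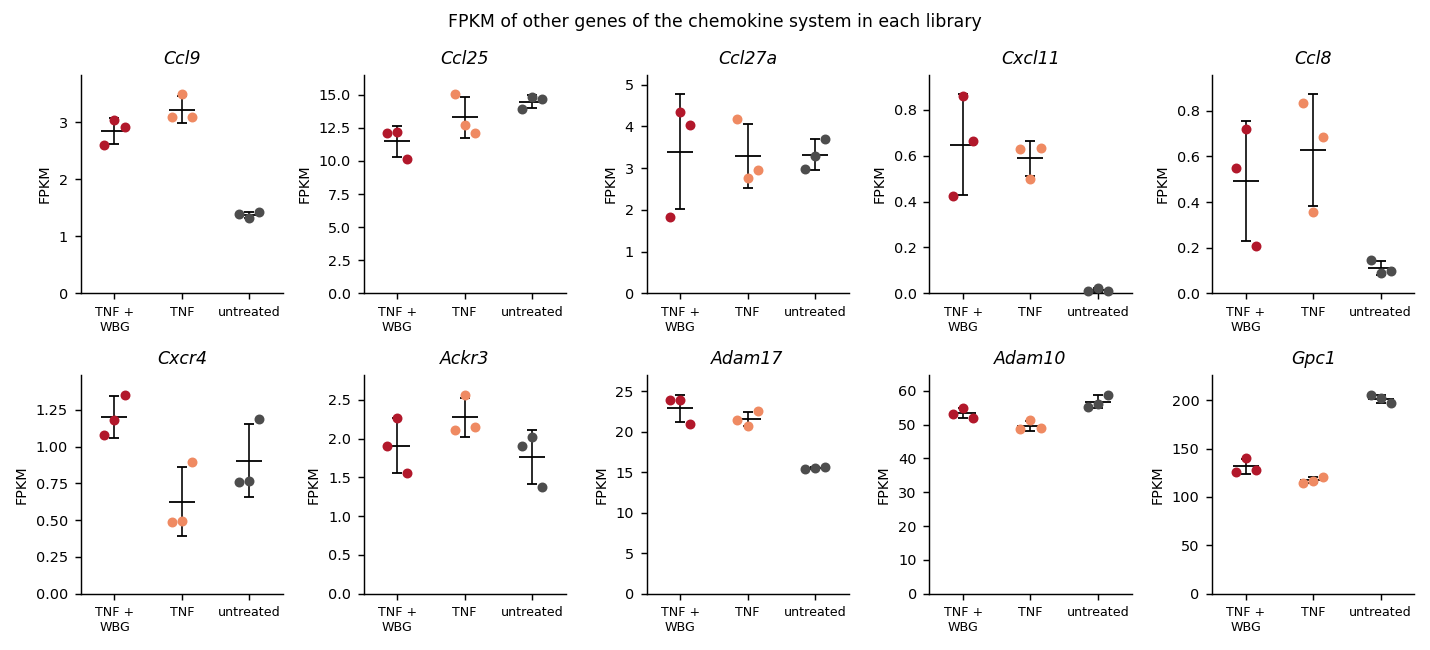
FPKM (vertical axes, each from 0) of 10 other genes of the chemokine system in the 3 libraries of each group (points), with the mean (long tick) and SD (error bar). Ccl9 and Adam17 are higher and Gpc1 lower in the treated libraries, and Cxcr4 stays at or below 1.35 FPKM.

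Genes whose log2 values followed a member most closely over the 9 libraries were sought among 8582 others with a mean of at least 5 FPKM. The libraries fall into 3 groups, so for Ccl2 and Cxcl1 these correlations mostly describe shared group differences. Ccl2 was followed most closely by Tnip1, an inhibitor of NF-kB signalling (Pearson r = 0.999, n = 9 libraries), by B2m, the light chain of MHC class I, and by Rnf213, a ubiquitin ligase (both r = 0.997). Cxcl1 was followed by the metalloreductase Steap4 (r = 0.998), the iron transporter Slc11a2 (r = 0.995) and the transcription factor Cebpd (r = 0.990). Steap4 averaged 46.3 FPKM with TNF plus WBG, 25.5 FPKM with TNF and 8.27 FPKM untreated. For Cxcl12, which passed in no comparison, the closest was Spag9, a scaffold of JNK signalling, at r = 0.971. Nek1 (r = 0.934) and Atp10a (r = 0.930) came next. These are the highest of 8582 correlations over 9 libraries, so they were picked for their size, and none was tested. Spag9 averaged 47.0 FPKM with TNF plus WBG, 47.1 FPKM with TNF and 45.7 FPKM untreated.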

How the data were processed

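Poly-A RNA of 9 libraries was sequenced in paired ends on an Illumina NovaSeq, per the labels' protocols. The authors deposited 1 table with 1 FPKM value per Ensembl gene and library; which aligner, quantifier and genome build produced them is not given in the sources used here. Symbols came from GENCODE M21 (55144 identifiers matched and 1145 did not). After a pseudocount of 1, log2 FPKM went into a limma-trend fit (limma 3.58.1, R 4.3.3) of all 9 libraries on group, for genes with at least 1 FPKM in at least 3 libraries. Tests were two-sided. Nothing in the labels tells whether replicates came from separate cultures, so the spread behind each p-value is only that between these libraries and may be technical. The members, gene lists and tests were chosen with earlier results of these data known. Named genes are the 10 members, the listed genes that passed in any comparison, the members' receptors (1 item is not reported here) and the 3 most similar genes of Ccl2, Cxcl1 and Cxcl12; others are said to be picked after their values were seen. Alternatives were pseudocounts of 0.1 and 5, no filter, a mean of at least 5 FPKM, median-ratio scaling, quantile normalization, only the 6 libraries compared, no trend, robust limma, a replicate block and omission of each library. Descriptions used python 3.11.15, numpy 2.4.6 and pandas 2.3.3, and figures matplotlib 3.10.9.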

Additional observations from a re-analysis of the deposited data

How the results depend on the processing

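With all libraries kept, 228 of 231 fold changes of members kept direction and side of the threshold, and no sign turned. The exceptions were Ccl20 and Cx3cl1 in TNF against untreated, given above. With a mean of at least 5 FPKM required, 3 members rose in TNF against untreated and 3 in TNF plus WBG against untreated, because Ccl5, Cxcl10 and Ccl20 were no longer tested. With 1 library left out, 197 of 207 fold changes kept both. Members that rose then numbered 5 to 6 in TNF against untreated and in TNF plus WBG against untreated, and 1 in TNF plus WBG against TNF. Members that fell numbered 0 in TNF against untreated and 0 to 1 in the other comparisons. Between TNF plus WBG and TNF the log2 fold change of Ccl5 ran from -0.23 to 0.089, and that of Cxcl12 from -0.085 to 0.080, so the sign of both depended on single libraries (Ccl5 turned without TNF plus WBG replicate 3, Cxcl12 without TNF plus WBG replicate 2 or TNF replicate 3). Over all genes, 13 passed between TNF plus WBG and TNF, against 7 in a fit of the 6 libraries compared, 8 with the replicate block and 8 without untreated replicate 1. Between TNF and untreated 1386 passed, against 919 without TNF replicate 3. Deviations from group means correlated between -0.07 and 0.11 for libraries of the same replicate number. For different numbers they correlated between -0.10 and 0.09, and 2 of 9 libraries correlated best with their own number. No clear pairing by number was seen, and with 3 libraries per group this cannot settle whether replicates were paired. The replicate block changed no call of a member. Low values limit the account of Cxcl5, Cxcl16 and Ccl20, and without counts their counting error is unknown.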
